A study of Mus musculus with 13 samples.

Results

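Kinesins are motor proteins that bind microtubules and turn ATP hydrolysis into movement or into the shortening of microtubule ends. Mitotic kinesins build and shorten the spindle, move chromosomes along it and help the daughter cells separate, and their transcripts are known to be made mainly in G2 and M phase. Transport kinesins carry vesicles, organelles and intraflagellar cargo through cells whether or not they divide, and a further set acts on microtubule ends, in cilia or in signalling. A stimulated B cell uses both kinds, since it divides quickly and also moves endosomes and antigen receptors.

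The kinesin genes described here are the protein-coding rows of the deposited expression table whose symbol is Kif, a number and at most 1 letter, which gave 37 genes of 47643. By role, 12 were placed with the mitotic kinesins, 13 with the transport kinesins and 12 with the other kinesins. Of the 37, 28 passed the filter on low values (6 or more libraries with a normalized count of 10 or higher) and were tested, namely 11 mitotic, 11 transport and 6 other kinesins.

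The study compared B cells without Whsc1, a methyltransferase of histone H3 lysine 36 also called Nsd2, with wild-type (WT) B cells, to find the genes that Whsc1 controls. Both groups are of C57BL/6 strain: fetal liver cells of WT or Whsc1-/- littermate embryos, the latter labelled Whsc1-KO, were put into RAG1-KO mice after a lethal dose of radiation, because Whsc1-KO embryos do not live to birth. RAG1-KO hosts make no mature B or T cells of their own, though host cells that survive radiation and do not need Rag1 can remain. Splenic B cells were enriched by removing cells that carry CD43 and grown for 48 h with lipopolysaccharide (LPS), a bacterial stimulus of B cell division, at 25 µg/ml, before poly-A RNA was sequenced. There were 7 WT and 6 Whsc1-KO libraries, which the series' design text calls independent biological replicates.

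The libraries held 38881663 to 53019516 reads in genes, and each mitotic kinesin but Kif2b rested on at least 753 reads in every library. Whsc1 had a normalized count of 5537 to 7459 in WT and 3733 to 5261 in Whsc1-KO (log2 fold change -0.54, SE 0.09, limma adjusted p = 0.00049); this whole-gene count does not test the deleted part. All 8 B cell markers checked were present, with a summed normalized count of 352831 to 409713 in WT. Their sum was 301224 to 313730 in Whsc1-KO replicates 1 to 3 and 235909 to 244369 in replicates 4 to 6. By limma 5 of the 8 fell, beside 25.7% of all genes tested, and Ms4a1, Pax5 and Blk were not called. Whsc1-KO replicates 4 to 6 stood apart from replicates 1 to 3. The 10 erythroid markers, of which Ahsp was not found in the table, summed to 868 to 3323 in WT, 2575 to 3058 in Whsc1-KO replicates 1 to 3 and 12916 to 194429 in replicates 4 to 6. The 9 myeloid markers summed to 1042 to 2016, 2463 to 2747 and 11586 to 15782 in the same sets, with the neutrophil gene Elane at 0 in every library. By limma 4 of 5 tested erythroid and 4 of 4 tested myeloid genes rose, beside 26.1% of all genes tested. Not every marker was high. In Whsc1-KO the highest values were 10.65 for Klf1, 5.19 for Epb42, 2.08 for Mpo, 4.15 for S100a9 and 0.91 for Ly6g. The 8 T cell markers summed to 16.2 to 56.2 in WT and 41.0 to 111.8 in Whsc1-KO. Of 4 plasma cell markers 2 rose (Sdc1 at a log2 fold change of 1.44 and Xbp1 at 0.51), beside 26.1% of all genes tested. Jchain and Prdm1 were not called. The plasma cell list summed to 43831 to 132988 in WT, 54366 to 101525 in Whsc1-KO replicates 1 to 3 and 98644 to 139360 in replicates 4 to 6. Results that rest on Whsc1-KO replicates 4 to 6 are therefore given with and without them.

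All 11 tested mitotic kinesins rose in Whsc1-KO and none fell by limma, edgeR or DESeq2, also at an unadjusted p, where 26.1% of all 13947 genes tested rose and 25.7% fell. Their log2 fold changes ran from 0.51 to 0.99 with a median of 0.70, while the median over all genes tested was -0.003. The rise covered spindle assembly, chromosome movement and cell separation alike. Roles were assigned with earlier results of these data known. Kif2a, which also acts at spindle poles, was placed with the other kinesins and was not called (log2 fold change -0.03). In bulk RNA, fewer cells of a type and less RNA per cell cannot be told apart, and the same holds for more of either. In each of the 11 genes, Whsc1-KO replicates 4 to 6 all lay above replicates 1 to 3, a pattern shown by 27.7% of all genes tested. The sums of the erythroid and myeloid markers were high in those same 3 libraries, and the sum of the B cell markers was lowest there. Without those libraries the plasma cell marker Sdc1 still rose in Whsc1-KO (0.96), while Xbp1, Jchain and Prdm1 (0.39, -0.07 and 0.06) were not called. The part of these cell types in the rise of the mitotic kinesins was not tested.

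**Figure D1:**
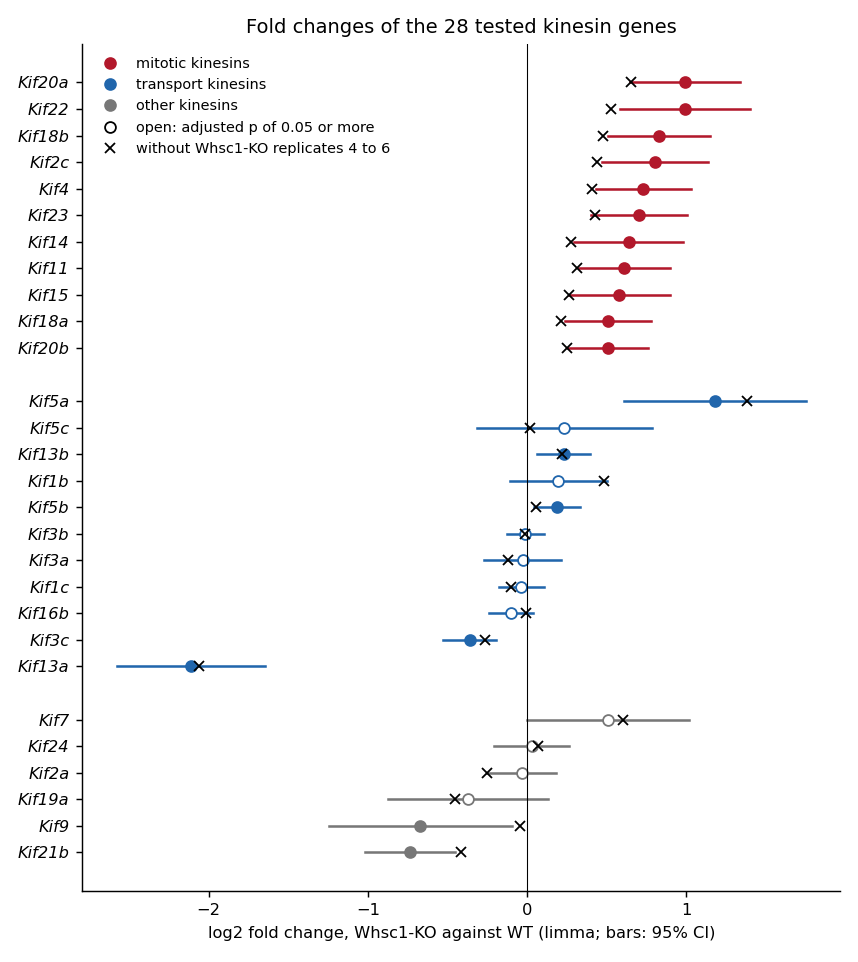
Log2 fold change of each tested kinesin gene (x axis, Whsc1-KO against WT, limma, n = 7 and 6), with its 95% confidence interval as a bar and the genes grouped by role; open points had an adjusted p of 0.05 or more, and crosses give the value without Whsc1-KO replicates 4 to 6. The 11 mitotic kinesins lie between 0.51 and 0.99, while the transport kinesins spread from -2.11 for Kif13a to 1.18 for Kif5a.

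Among the kinesins of the midzone and of cell separation, Kif20a changed most. Kif20a brings the chromosomal passenger complex to the central spindle in anaphase. Its normalized count had a lowest, median and highest value of 1901, 2353 and 3258 in WT, of 3467, 5243 and 6279 in Whsc1-KO, and the groups did not overlap. The means were 2530.4 ± 461 (SD, n = 7) and 5096 ± 1291 (SD, n = 6), and its log2 fold change was 0.99 (SE 0.16, adjusted p = 0.000325 by limma). Whsc1-KO replicates 1 to 3 held 3467 to 4263 and replicates 4 to 6 held 6224 to 6279, so that even the lower set was above every WT library. Without replicates 4 to 6 the log2 fold change was 0.65 (limma adjusted p = 0.00704), and Kif20a was the 1 mitotic kinesin that also passed within replicates 1 to 3 alone (0.48, limma adjusted p = 0.0412). On the opposite strand, Cdc23 shares 29.3% of the exon bases of Kif20a, and its own log2 fold change was 0.43 (limma adjusted p = 0.00144).

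Kif23, which with Racgap1 forms centralspindlin at the midzone, had counts of 1734, 2424 and 2904 (lowest, median and highest) in WT and 2807, 3975 and 4873 in Whsc1-KO. The groups overlapped by 1 WT library, replicate 3, which was above the lowest Whsc1-KO library. The log2 fold change of Kif23 was 0.70 (SE 0.14, adjusted p = 0.00115 by limma), and 0.43 without Whsc1-KO replicates 4 to 6 (limma adjusted p = 0.0322). Kif4, a chromosome-bound motor that carries Prc1 to the midzone, had counts of 1836, 2202 and 2595 in WT and 2609, 3715 and 4618 in Whsc1-KO, with no overlap. Its log2 fold change was 0.73 (SE 0.14, adjusted p = 0.000823 by limma), and 0.405 without Whsc1-KO replicates 4 to 6 (limma adjusted p = 0.0105). Kif4 lies on the X chromosome, and with a sex score from Xist and 4 Y-linked genes in the fit its log2 fold change was 0.83. Pdzd11, on the opposite strand, shares 15.1% of the exon bases of Kif4 and had a log2 fold change of 0.36 (limma adjusted p = 0.0123).

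The remaining cytokinesis motors rose less. Kif14, which acts with citron kinase in abscission, had counts of 990.04, 1341 and 1583 in WT and 1393, 2114 and 2627 in Whsc1-KO. Kif20b, needed for the completion of cytokinesis, had counts of 2059, 2534 and 2934 in WT and 2755, 3588 and 4306 in Whsc1-KO. Both pairs of groups overlapped, and Whsc1-KO replicate 3 was the lowest of its group in each. The log2 fold changes were 0.64 for Kif14 (SE 0.16, adjusted p = 0.00482 by limma) and 0.51 for Kif20b (SE 0.12, adjusted p = 0.00276 by limma). Without Whsc1-KO replicates 4 to 6 they were 0.28 and 0.25 (limma adjusted p = 0.122 and 0.0668).

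The motors that build and position the spindle also rose. Kif11, also called Eg5, slides antiparallel microtubules apart to separate the spindle poles, and Kif15 can take over part of that work. Kif11 had counts of 5319.8, 6091 and 7731 in WT and 7315, 9989 and 12368 in Whsc1-KO, and WT replicate 3 lay above Whsc1-KO replicates 2 and 3. Kif15 had counts of 2119, 2799 and 3261 in WT and 2891, 4362 and 5509 in Whsc1-KO, and its groups overlapped. The log2 fold changes were 0.61 for Kif11 (SE 0.13, adjusted p = 0.00209 by limma) and 0.58 for Kif15 (SE 0.15, adjusted p = 0.00521 by limma). Without Whsc1-KO replicates 4 to 6 they were 0.31 and 0.26 (limma adjusted p = 0.0452 and 0.131).

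Kif22, a chromosome-arm motor that pushes chromosomes towards the spindle equator, had counts of 1820.5, 2261 and 2859 in WT and 2841, 4802 and 6583 in Whsc1-KO. Its groups overlapped by a single WT library, replicate 3, and the Whsc1-KO libraries held 2841 to 3538 in replicates 1 to 3 and 6066 to 6583 in replicates 4 to 6. The log2 fold change of Kif22 was 0.99 (SE 0.19, adjusted p = 0.000928 by limma), and 0.53 without replicates 4 to 6 (limma adjusted p = 0.00936).

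Kinesins that shorten or damp microtubule ends formed the last mitotic set. Kif18b, which shortens astral microtubules, had counts of 1297, 1540.2 and 1928 in WT and 2039, 2922 and 3593 in Whsc1-KO, without overlap. Kif2c, the centromere depolymerase also called MCAK, had counts of 1029.6, 1297 and 1565.22 in WT and 1565.83, 2365 and 2947 in Whsc1-KO, so that its groups only just failed to meet. Kif18a, which damps chromosome movement at the plate, had counts of 903.6, 1039 and 1138 in WT and 1062, 1536 and 1840.2 in Whsc1-KO, and these overlapped. The log2 fold changes were 0.83 for Kif18b (SE 0.15, adjusted p = 0.0006 by limma), 0.80 for Kif2c (SE 0.15, adjusted p = 0.000921 by limma) and 0.51 for Kif18a (SE 0.13, adjusted p = 0.00419 by limma). Without Whsc1-KO replicates 4 to 6 they were 0.47, 0.44 and 0.215 (limma adjusted p = 0.00689, 0.0135 and 0.0927). Kif2b, a spindle depolymerase like Kif2c, had no read in any library.

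Across the 11 genes the groups did not overlap in 4, namely Kif20a, Kif4, Kif18b and Kif2c, against 9.03% of all genes tested whose Whsc1-KO libraries all lay above WT. Without Whsc1-KO replicates 4 to 6, 7 of the 11 rose (Kif11, Kif18b, Kif20a, Kif22, Kif23, Kif2c and Kif4) with a median log2 fold change of 0.40, beside 14% of all genes tested. The other 4 (Kif14, Kif15, Kif18a and Kif20b) kept a positive value, the lowest being 0.21. Within replicates 1 to 3 of both groups, only Kif20a rose of the 11 (6 at an unadjusted p under 0.05), with a median of 0.27 over them, beside 6.79% of all genes. Within replicates 4 and later, all 11 rose with a median of 1.101, beside 30% of all genes. These 2 comparisons also use different WT libraries. The first holds WT replicate 3 and the second WT replicate 4, the highest and the lowest WT library in the mean of the mitotic kinesins.

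**Figure D2:**
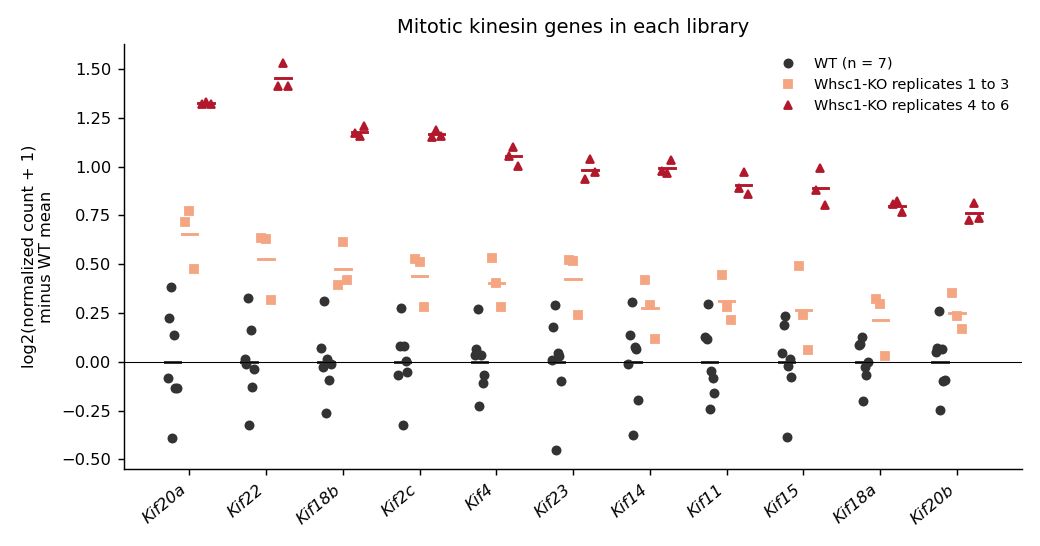
Log2(normalized count + 1) of each tested mitotic kinesin minus its WT mean (y axis), with 1 point per library (7 WT, 3 and 3 Whsc1-KO) and a dash at the mean of each set. In all 11 genes the Whsc1-KO replicates 4 to 6 form a tight set above replicates 1 to 3, and in 4 genes every Whsc1-KO library is above every WT library.

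Promoters of the mitotic kinesins are shown because several members that rose share short sequence words known from cell cycle genes. These are TTTGAA and TTTAAA, the words of the cell cycle homology region bound by the MuvB complex, and CCAAT, bound by NF-Y. The E2F words TTTCCCGC, TTTCGCGC, TTTGCCGC and TTTGGCGC were also searched for. Windows of 250 bases before to 50 after the start of transcription came from RefSeq on GRCm38.p6, where 31 of the 37 kinesins had one, and both strands were searched. Of the 11 mitotic kinesins that rose, 10 had a window, and 9 of these held TTTGAA, 2 TTTAAA, 6 CCAAT and 2 an E2F word. Of all 32851 RefSeq windows of this length, 17.9% held TTTGAA, 13.2% TTTAAA, 37.4% CCAAT and 2.26% an E2F word. Of the 17 tested transport and other kinesins, 12 had a window, and none of these held TTTGAA while 4 held CCAAT. With the untested members, 1 of 10 windows of transport kinesins (Kif1a) and 2 of 10 of other kinesins (Kif26b and Kif27) held TTTGAA. A match is a run of letters and not a site known to be bound, and windows without a match say nothing of any factor. The stretches below run from 120 bases before to 30 after the start, 5′ to 3′ on the strand of the gene, with matches in capitals (TTCAAA and ATTGG are TTTGAA and CCAAT on the other strand), for the 5 mitotic kinesins with at least 3 matches in the whole window and for the transport kinesin Kif13a.
Kif14 (chr1:136467728-136467877, plus strand): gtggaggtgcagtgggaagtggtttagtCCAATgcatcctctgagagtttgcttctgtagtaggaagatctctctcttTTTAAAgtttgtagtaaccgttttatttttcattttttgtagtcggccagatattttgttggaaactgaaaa
Kif15 (chr9:122950961-122951110, plus strand): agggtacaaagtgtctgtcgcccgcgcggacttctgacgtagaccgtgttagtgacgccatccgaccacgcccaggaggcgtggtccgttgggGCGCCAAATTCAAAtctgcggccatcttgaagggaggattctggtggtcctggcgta
Kif18b (chr11:102925095-102925244, minus strand): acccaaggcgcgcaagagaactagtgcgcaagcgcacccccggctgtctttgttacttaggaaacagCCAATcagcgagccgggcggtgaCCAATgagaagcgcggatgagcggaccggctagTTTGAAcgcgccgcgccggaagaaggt
Kif22 (chr7:127042391-127042540, minus strand): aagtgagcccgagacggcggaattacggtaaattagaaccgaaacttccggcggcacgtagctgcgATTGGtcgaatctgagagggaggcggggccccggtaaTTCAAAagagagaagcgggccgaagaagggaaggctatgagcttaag
Kif4 (chrX:100625945-100626094, plus strand): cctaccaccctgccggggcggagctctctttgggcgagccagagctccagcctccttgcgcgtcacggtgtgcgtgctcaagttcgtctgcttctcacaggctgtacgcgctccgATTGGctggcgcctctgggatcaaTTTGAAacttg
Kif13a (chr13:46929689-46929838, minus strand): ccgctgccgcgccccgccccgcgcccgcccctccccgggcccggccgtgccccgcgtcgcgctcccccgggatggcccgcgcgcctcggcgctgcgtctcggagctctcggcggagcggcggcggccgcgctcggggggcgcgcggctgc

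In these stretches, Kif15 has the E2F word GCGCCAAA directly before TTCAAA, and Kif18b has a pair of CCAAT words before a TTTGAA that begins 3 bases after the start. Kif22 has ATTGG and TTCAAA, and Kif4 has ATTGG followed by TTTGAA 19 bases after the start. Kif14 has CCAAT and TTTAAA, while its TTTGAA lies further upstream, 228 bases before the start. In GENCODE, Kif14 and Kif4 begin upstream of the printed stretches, at 136466343 and 100625737. Distances for these genes therefore hold for the RefSeq start only. Kif13a, which fell, has none of the words searched in its window.

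The partners of the mitotic kinesins rose with them. In a list of 16 spindle and midzone proteins, 15 rose and none fell by limma (16 and 0 at an unadjusted p under 0.05, by edgeR and by DESeq2), beside 26.1% and 25.7% of all genes tested, with a median log2 fold change of 0.78. Without Whsc1-KO replicates 4 to 6 the count was 13 with a median of 0.42, beside 14% of all genes that rose. Cdca8 and Aurka had log2 fold changes of 0.81 and 0.98, and Tpx2 of 0.79 (limma adjusted p = 0.000356, 0.000601 and 0.000501); Cdca8 is a subunit of the passenger complex, and Tpx2 activates the kinase Aurka at the spindle. In a list of 17 G2 and M phase genes, 15 rose and none fell by limma (16 and 0 at an unadjusted p under 0.05, by edgeR and by DESeq2), with a median of 0.74, and 11 rose without replicates 4 to 6. Cdc20 and Ube2c, which drive the destruction of mitotic proteins, had log2 fold changes of 1.13 and 1.07, and the proliferation marker Mki67 of 0.74 (limma adjusted p = 9.3e-05, 0.00012 and 0.000227).

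The level of the mitotic kinesins followed these lists from library to library. As the mean log2 value over tested genes minus the WT mean, the mitotic kinesins ran from -0.31 to 0.28 in WT, from 0.24 to 0.49 in Whsc1-KO replicates 1 to 3 and from 1.03 to 1.08 in replicates 4 to 6. Spindle partners ran from 0.25 to 0.46 and from 1.04 to 1.09 in the same 2 Whsc1-KO sets, and the G2 and M genes from 0.25 to 0.48 and from 0.96 to 1.02. WT replicate 4 was the lowest library and WT replicate 3 the highest WT library for all 3 sets. The transport kinesins stayed between -0.12 and 0.02 in Whsc1-KO, inside their WT range of -0.14 to 0.17. This mean gives each gene the same weight, including Kif13a (log2 fold change -2.11) and Kif5a (1.18).

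**Figure D3:**
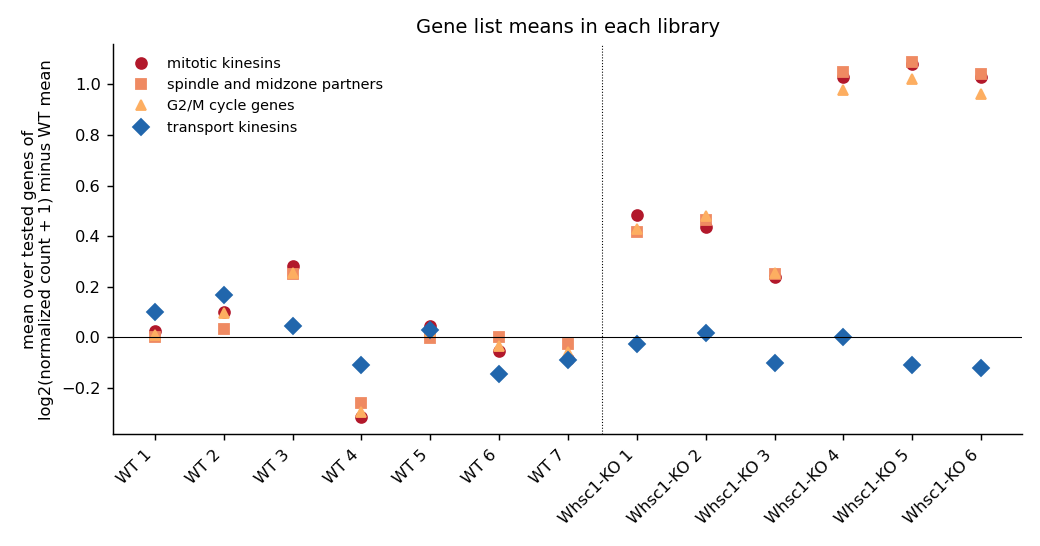
Mean over the tested genes of 4 lists of log2(normalized count + 1) minus the WT mean (y axis) in each of the 13 libraries (x axis). Mitotic kinesins, spindle partners and G2 and M genes lie on top of each other, at 0.24 to 0.49 in Whsc1-KO replicates 1 to 3 and at 0.96 to 1.09 in replicates 4 to 6, while transport kinesins stay near 0.

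Kinesin superfamily members whose symbol falls outside the pattern were not sorted into the 3 roles. Of 6 such genes, 3 rose and none fell by limma, edgeR or DESeq2, also at an unadjusted p, beside 26.1% and 25.7% of all genes tested. Cenpe, the kinetochore motor that brings late chromosomes to the plate, had a log2 fold change of 0.62 (limma adjusted p = 0.00114). Kifc1, a minus-end motor that focuses spindle poles, had 0.93 and Kifc5b 0.85 (limma adjusted p = 0.000412 and 0.000341); these are near-identical copies, and how reads were divided between them is uncertain. All 3 also passed without Whsc1-KO replicates 4 to 6, at 0.35, 0.56 and 0.52. Kifc2, Kifc3 and Stard9 were not called, with log2 fold changes of 0.13, 0.36 and -0.08.

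Transport kinesins did not move as a group. Of 11 tested, 3 rose (Kif5a, Kif13b and Kif5b), 2 fell (Kif13a and Kif3c) and 6 were not called. These stand beside 26.1% and 25.7% of all genes that rose and fell, and the median log2 fold change of the tested transport kinesins was -0.01. Kif5a entered the test only through the Whsc1-KO libraries, where it was high, and is no support for a rise. Kif13a fell to 22.3% of its WT level; the other called changes, apart from that of the weakly expressed Kif5a, lay between -0.36 and 0.23. Without Whsc1-KO replicates 4 to 6, 2 rose (Kif5a and Kif1b) and 2 fell (Kif13a and Kif3c), beside 14% and 15.6% of all genes tested. Within replicates 1 to 3, limma called none higher (3 at an unadjusted p under 0.05) and Kif13a lower, beside 6.79% and 8.76%. Within replicates 4 and later, the 3 kinesin-1 chains Kif5a, Kif5b and Kif5c rose and Kif13a and Kif3c fell, beside 30% and 30.1%.

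Kif13a, a kinesin-3 that moves recycling endosomes and carries the mannose 6-phosphate receptor to the cell surface, changed most of all tested kinesins. Its normalized counts were 245.1, 228.5, 267.3, 111.6, 149.9, 255.7 and 244.8 in WT replicates 1 to 7 and 67.9, 44.4, 37.9, 52.0, 46.6 and 38.4 in Whsc1-KO replicates 1 to 6. Every Whsc1-KO library was below every WT library, as for 10.2% of all genes tested. WT replicates 4 and 5 were the low ones of their group. The means were 214.7 ± 59.6 (SD, n = 7) and 47.9 ± 11.1 (SD, n = 6), so that Whsc1-KO held 22.3% of the WT level, for a log2 fold change of -2.11 (SE 0.22, adjusted p = 1.04e-05 by limma).

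The fall of Kif13a was as large without Whsc1-KO replicates 4 to 6 (-2.06, limma adjusted p = 0.000488), within replicates 1 to 3 (-2.32, limma adjusted p = 0.000939) and within the later replicates (-1.97, limma adjusted p = 0.000604). Replicates 1 to 3 of Whsc1-KO held 37.9 to 67.9 and replicates 4 to 6 held 38.4 to 52.0, so this gene, unlike the mitotic kinesins, did not separate the 2 sets. Kif13a lies on chromosome 13 (46749087 to 46929867, minus strand, GRCm38) and spans 180.8 kb. Its closest relative Kif13b, also a kinesin-3, had counts of 1002.7, 1048 and 1272 (lowest, median and highest) in WT and 1162, 1278 and 1468 in Whsc1-KO, which overlapped, and a log2 fold change of 0.23 (SE 0.08, adjusted p = 0.0232 by limma). The call of Kif13b was lost without Whsc1-KO replicates 4 to 6, at 0.22 (limma adjusted p = 0.108), and without Whsc1-KO replicate 3 or 6 alone, at 0.19 and 0.20.

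Kif5a, Kif5b and Kif5c are the heavy chains of kinesin-1, the motor that carries mitochondria, lysosomes and many vesicles. Kif5b made up nearly all of it: per kb of exon, Kif5b was 98.8% ± 0.34 of the 3 chains in WT (SD, n = 7) and 98.7% ± 0.21 in Whsc1-KO (SD, n = 6). Counts of Kif5b were 8018, 8932 and 9592 in WT and 8776, 10149.5 and 11010.5 in Whsc1-KO, and its log2 fold change was 0.19 (SE 0.07, adjusted p = 0.0336 by limma). Only Whsc1-KO replicates 4 to 6, at 10867 to 11010.5, lay above every WT library, and without them the log2 fold change was 0.06 (limma adjusted p = 0.544). Leaving out WT replicate 2, 6 or 7 or Whsc1-KO replicate 4, 5 or 6 alone also ended the call, at 0.16 to 0.18, as did upper quartile scaling (adjusted p = 0.0546 by limma) and the absence of a filter (0.0578).

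Kif5a, the chain best known from neurons, was weakly present. Its counts were 9.60, 19.0, 7.06, 7.20, 16.7, 10.5 and 9.14 in WT replicates 1 to 7 and 29.0, 35.5, 24.5, 27.1, 23.3 and 16.6 in Whsc1-KO replicates 1 to 6. Only Whsc1-KO replicate 6 fell inside the WT range. The log2 fold change of Kif5a was 1.18 (SE 0.27, adjusted p = 0.00248 by limma) and 1.38 without Whsc1-KO replicates 4 to 6 (limma adjusted p = 0.0126). The gene passed the filter only through Whsc1-KO, with 3 WT and 6 Whsc1-KO libraries at 10 or more, so its call within the filtered genes supports nothing. Without a filter its adjusted p was 0.0077 by limma. Kif5c had counts of 38.9 to 134.1 in WT and 57.0 to 124.5 in Whsc1-KO and a log2 fold change of 0.23 (95% CI -0.32 to 0.78).

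Kinesin-2 is built from Kif3a with Kif3b or Kif3c and the adaptor Kifap3, and it carries vesicles and, in cilia, intraflagellar trains. Kif3c had counts of 634.9, 766.6 and 783.3 in WT and 502.2, 555.2 and 654.4 in Whsc1-KO, where replicates 4 to 6 (502.2 to 546) lay below replicates 1 to 3 (564.3 to 654.4). WT replicates 5 and 7, at 653.5 and 634.9, reached down into the Whsc1-KO range. Its log2 fold change was -0.36 (SE 0.08, adjusted p = 0.0019 by limma) and -0.27 without replicates 4 to 6 (limma adjusted p = 0.0473). The antisense gene 1110002L01Rik shares 35.3% of the exon bases of Kif3c and had a log2 fold change of -0.21 (limma adjusted p = 0.0239); whether counting used the strand is not given in the sources used here, so the reads of the pair may not be separated.

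Kif3a had counts of 219.2, 265.2 and 307.2 in WT and 192.9, 264.4 and 274.9 in Whsc1-KO, and its log2 fold change was -0.03 (95% CI -0.27 to 0.21). Kif3b had counts of 1871, 2037 and 2322 in WT and 1924, 2064 and 2116 in Whsc1-KO, and its log2 fold change was -0.01 (95% CI -0.13 to 0.10). Both intervals leave room for small changes in either direction. Per kb of exon, Kif3c made up 21.3% ± 2.0 of Kif3b and Kif3c in WT (SD, n = 7) and 17.5% ± 1.3 in Whsc1-KO (SD, n = 6), and Kif3a stood at 15.6% ± 1.8 and 16.2% ± 2.0 of their sum. Kifap3, named here after its values were seen, had a log2 fold change of -0.42 (limma adjusted p = 0.00494), and of -0.38 without Whsc1-KO replicates 4 to 6 (limma adjusted p = 0.0588).

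The other kinesin-3 motors were not called over all libraries. Kif1b, a carrier of mitochondria and vesicle precursors, had counts of 1043, 1177 and 1552 in WT, 1635 to 1803 in Whsc1-KO replicates 1 to 3 and 1003 to 1307 in replicates 4 to 6. The first Whsc1-KO set lay above every WT library and the second within or below the WT range. Its log2 fold change was 0.20 over all libraries (95% CI -0.11 to 0.50) and 0.48 without Whsc1-KO replicates 4 to 6, where it passed (limma adjusted p = 0.0116).

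Kif1c, which works between the Golgi apparatus and the endoplasmic reticulum, had counts of 2283 to 2845 in WT and 2295 to 2634 in Whsc1-KO and a log2 fold change of -0.04 (95% CI -0.18 to 0.10). Kif16b, a motor of early endosomes, had counts of 1297 to 1509.9 in WT and 1153 to 1411 in Whsc1-KO and a log2 fold change of -0.10 (95% CI -0.24 to 0.03). Kif1a and Kif17, known from neurons, stayed under the filter, with at most 4.66 and 6.00 normalized counts in any library.

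**Figure D4:**
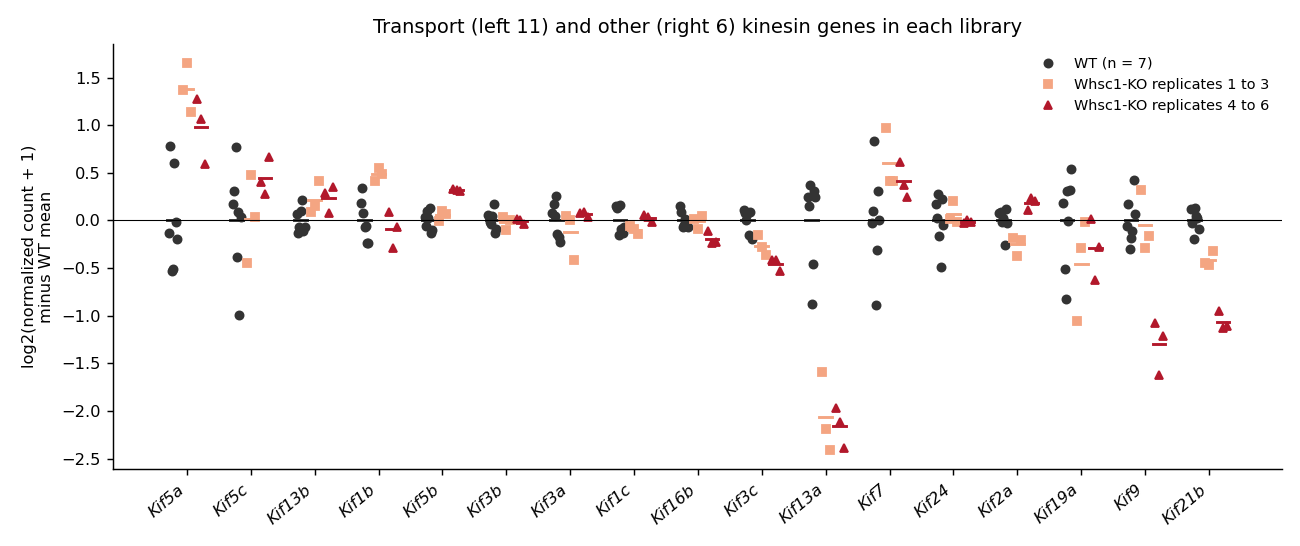
Log2(normalized count + 1) of the 11 tested transport kinesins (left) and 6 other kinesins (right) minus the WT mean (y axis), with 1 point per library and a dash at the mean of each set. Kif13a lies low in all 6 Whsc1-KO libraries, whereas Kif9 and Kif21b lie lowest in Whsc1-KO replicates 4 to 6, and Kif1b is high in replicates 1 to 3 only.

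Among the 6 tested other kinesins, 2 fell (Kif21b and Kif9), none rose by limma, edgeR or DESeq2, also at an unadjusted p, and 4 were not called, with a median log2 fold change of -0.20, while 51.8% of all genes tested changed in either direction. Without Whsc1-KO replicates 4 to 6, and also within replicates 1 to 3, the 2 that fell were Kif21b and Kif2a, beside 15.6% and 8.76% of all genes, and within the later replicates they were Kif21b, Kif9 and Kif19a, beside 30.1%. Kif21b, which limits microtubule growth and is known from neurons and lymphocytes, had counts of 15243, 17705 and 19030.3 in WT and 7978, 10826 and 13932 in Whsc1-KO, with no overlap. Replicates 1 to 3 of Whsc1-KO held 12627 to 13932 and replicates 4 to 6 held 7978 to 9024, the reverse of the order in the mitotic kinesins. Its log2 fold change was -0.74 (SE 0.13, adjusted p = 0.000578 by limma). Without replicates 4 to 6 it was -0.41 (limma adjusted p = 0.0025), within replicates 1 to 3 it was -0.38 (limma adjusted p = 0.0295), and within the later replicates -1.09 (limma adjusted p = 1.02e-05). The sum of the B cell markers was also lowest in Whsc1-KO replicates 4 to 6. The part of the mix of cell types in the fall of Kif21b was not tested.

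Kif9, known from cilia and sperm flagella, had counts of 243.1, 287 and 402 in WT, 245.8 to 374.7 in Whsc1-KO replicates 1 to 3 and 96.9 to 142 in replicates 4 to 6. Only the last 3 libraries lay below WT. Its log2 fold change of -0.67 passed the threshold narrowly (SE 0.27, adjusted p = 0.0484 by limma), and was -0.04 without Whsc1-KO replicates 4 to 6 (limma adjusted p = 0.869). The call was also lost with edgeR (adjusted p = 0.115) and with any 1 of WT replicates 1, 2 and 4 to 7 or Whsc1-KO replicates 4 to 6 left out, where the log2 fold change ran from -0.70 to -0.48. The sums of the erythroid and myeloid markers were high in the same 3 libraries, and the part of these cell types in the fall of Kif9 was not tested.

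Kif2a, a depolymerase of spindle poles and of growing neurites, had counts of 1464 to 1902 in WT, 1356 to 1548 in Whsc1-KO replicates 1 to 3 and 1891 to 2071 in replicates 4 to 6. The 2 Whsc1-KO sets lay on opposite sides of the WT median of 1782. Over all libraries the log2 fold change was -0.03 (95% CI -0.25 to 0.18), and without replicates 4 to 6 it was -0.25 (limma adjusted p = 0.0432). Dimt1, on the opposite strand, shares 19.2% of the exon bases of Kif2a.

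The last 3 tested genes act at cilia or centrioles. Kif24, which trims centriolar microtubules, had counts of 593.2 to 1007.5 in WT and 814.2 to 958.5 in Whsc1-KO and a log2 fold change of 0.03 (95% CI -0.21 to 0.26), a sign that turned with upper quartile scaling (-0.002). Kif19a, which limits the length of motile cilia, had counts of 128.1 to 330.7 in WT and 108.6 to 229.8 in Whsc1-KO and a log2 fold change of -0.37 (95% CI -0.88 to 0.13). Kif7, a Hedgehog pathway regulator at the tip of the cilium, had counts of 19.2 to 65.6 in WT and 43.6 to 72.4 in Whsc1-KO and a log2 fold change of 0.51 (95% CI -0.004 to 1.02). Ticrr, on the opposite strand, shares 1.11% of the exon bases of Kif7. Over all libraries its mean normalized count was 2336 against 45.25 for Kif7, and its log2 fold change was 0.62 (limma adjusted p = 0.00137).

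Of the untested other kinesins, Kif12, Kif21a, Kif26b and Kif27 had 1 to 11 reads in either group as a whole and Kif6 had none. Kif26a, an atypical kinesin that acts in signalling, differed between the groups although it stayed under the filter. It had 67 reads over the 6 Whsc1-KO libraries and 1 read over the 7 WT libraries. Its normalized counts were 9.96, 7.99, 3.35, 27.1, 3.73 and 15.6 in Whsc1-KO replicates 1 to 6, and 0.95 in a single WT library with the others at 0. Every Whsc1-KO library was above every WT library, and the ratio of the reads, corrected for library size, was 81.3 with a 95% counting interval of 14.1 to 3259, which covers counting error only. In the authors' deposited table the log2 fold change of Kif26a was 2.24 after shrinkage and 6.31 before it (adjusted p = 2.82e-07, DESeq2).

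Compared per kb of exon, the order of the kinesins differed between the groups and between the Whsc1-KO sets. In WT the highest levels were those of Kif21b at 1435 ± 112 normalized counts per kb (SD, n = 7), Kif5b at 1103 ± 74, Kif11 at 851 ± 113 and Kif20a at 583 ± 106. Over all of Whsc1-KO they were those of Kif11 at 1318 ± 299 (SD, n = 6), Kif5b at 1258 ± 127, Kif20a at 1175 ± 298, Kif22 at 973 ± 335 and Kif21b at 881 ± 218. Neighbours in this order lay closer than their SD, so that their ranks are not separated there. In Whsc1-KO replicates 1 to 3 Kif5b stood first at 1144 ± 41 (SD, n = 3), then Kif21b at 1075 ± 59, Kif11 at 1052 ± 86 and Kif20a at 909 ± 97. In replicates 4 to 6 the order was Kif11 at 1584 ± 66 (SD, n = 3), Kif20a at 1441 ± 6.4, Kif5b at 1371 ± 9.0 and Kif22 at 1273 ± 60, with Kif21b at 687 ± 47. The mitotic kinesins summed to 4173 ± 541 per kb in WT and 7204 ± 1828 in Whsc1-KO. The transport kinesins summed to 2336 ± 125 and 2454 ± 118. Transport sums ran from 2146 to 2457 in WT, 2328 to 2368 in Whsc1-KO replicates 1 to 3 and 2532 to 2603 in replicates 4 to 6. Only the last set lay above every WT library.

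As a share of all kinesin signal per kb, the mitotic kinesins held 49.2% ± 3.7 (SD, n = 7) in WT, with a range of 42.8% to 55.3%. In Whsc1-KO they held 64.5% ± 6.5 (SD, n = 6), with 55.9% to 60.5% in replicates 1 to 3 and 69.4% to 71.1% in replicates 4 to 6. All 6 Whsc1-KO libraries were above every WT library. The transport kinesins held 27.7% ± 1.6 in WT and 22.6% ± 2.6 in Whsc1-KO, and the other kinesins, mostly Kif21b, 23.2% ± 2.4 and 12.9% ± 3.9.

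**Figure D5:**
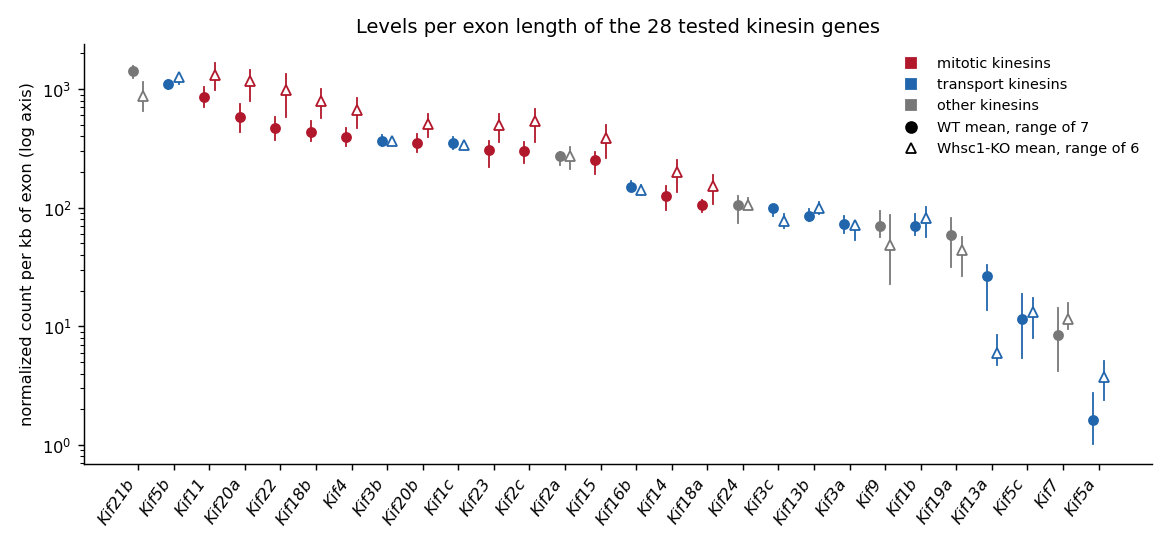
Normalized count per kb of exon (y axis, log scale) of the 28 tested kinesins in order of their WT mean, with circles for the mean of 7 WT libraries, triangles for the mean of 6 Whsc1-KO libraries and bars for the range. Kif21b stands first in WT at 1435 per kb, and Kif11 stands first over all Whsc1-KO libraries at 1318 per kb, though Kif5b stands first in replicates 1 to 3 alone at 1144 per kb.

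Partners of the transport kinesins are described beside the 26.1% and 25.7% of all genes tested that rose and fell (14% and 15.6% without Whsc1-KO replicates 4 to 6). In a list of kinesin light chains and cargo adaptors, 5 of 15 tested rose and 4 fell, shares close to those of all genes, with a median log2 fold change of -0.13, and 3 rose and 1 fell without Whsc1-KO replicates 4 to 6. Trak1, which links kinesin-1 to mitochondria, had -0.26, Plekhm2, which links it to lysosomes, 0.34, and Rhot2, the Trak anchor on mitochondria, 0.41 (limma adjusted p = 0.00041, 0.000876 and 0.000897). In a list of cytoplasmic dynein and dynactin, the motor that runs the opposite way, 8 of 18 tested rose and none fell by limma, edgeR or DESeq2 (1 at an unadjusted p under 0.05), with a median of 0.09, and 3 rose without replicates 4 to 6. Dctn3 had 0.34, Dctn1 0.29 and the dynein regulator Ndel1 0.31 (limma adjusted p = 0.000591, 0.000611 and 0.00117). Of 12 intraflagellar transport genes, the cargo of ciliary kinesin-2, 2 rose and 2 fell with a median of -0.15, and 2 rose and 3 fell without replicates 4 to 6. Ift27 had a log2 fold change of 1.097, Ift81 of -0.94 and Ift20 of 0.54 (limma adjusted p = 7.25e-06, 0.000611 and 0.000765).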

How the data were processed

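RNA of 7 WT and 6 Whsc1-KO libraries was sequenced from both ends with reads of 76 bases and a strand-specific kit, per the labels' protocols. The authors deposited normalized counts per gene, in which each value is a whole number of reads divided by 1 size factor per library, a signal whose reads were recovered (100% of low values in every library whole within 0.05 reads). The submitters' processing notes name the aligner STAR (version 2.5.1b), the quantifier RSEM (version 1.2.28), DESeq2 (version 1.10.1) and 2 genome builds, mm9 and GRCm38, without saying which step used which. The authors' deposited comparison table gives a log2 fold change, a score and a p-value per gene, and only the Kif26a value was taken from it. The authors' gene list and the enrichment tables, with a fold enrichment (a ratio) per the file headers, were not used.

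Here limma 3.58.1 with a mean-variance trend was run on log2(normalized count + 1) of the 13947 genes with 10 or more in at least 6 libraries, two-sided, with Benjamini-Hochberg adjustment over all of them and a threshold of 0.05. Fold changes on this scale understate those of genes with few reads. P-values measure the spread between these libraries. Levels per kb divide by the union of GENCODE M21 exons on GRCm38, from which coordinates also come. Depth sets the precision: genes with few reads (Kif5a, Kif7) are the least certain.

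Alternatives were the pseudocount (0.5, 5), the filter, TMM and upper quartile scaling, edgeR 4.0.16 and DESeq2 1.42.0 on recovered reads, library weights, a replicate block, sets of replicates, stricter thresholds, each library left out and a sex score, which was added after seeing the data. Fits were run in R 4.3.3 and tested on simulated data; tables were handled with pandas 2.3.3, numpy 2.4.6 and scipy 1.17.1, and plots drawn with matplotlib 3.10.9, under Python 3.11.15. All members were described, and from each other list apart from the cell type markers the 3 tested genes with the smallest adjusted p were named. The members, roles, lists and tests were chosen with earlier results of these data known. No protein sequence was used here.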

Additional observations from a re-analysis of the deposited data

Results flagged for a closer look

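Of 56 sets of 1 tested kinesin in 1 group, 3 held a library far from the others of its group, and chance alone flags about 1 in 20. Kif24 was highest in Whsc1-KO replicate 2, at a normalized count of 958.5, while the other Whsc1-KO libraries held 814.2 to 843.5. Kif2a was lowest in WT replicate 5, at 1464, with the other WT libraries at 1721 to 1902. Kif3a was lowest in Whsc1-KO replicate 3, at 192.9, with the other Whsc1-KO libraries at 258.3 to 274.9. None of the 3 genes passed the threshold over all libraries.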

How the results depend on the processing

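The 11 mitotic kinesins that rose stayed at 11 under the pseudocounts, filters, scalings, edgeR, DESeq2, library weights, the stricter thresholds, the sex score and each library left out (11 to 11), and none fell in any of these (0 to 0). The exceptions were sets of libraries: 7 rose without Whsc1-KO replicates 4 to 6 and 1 within replicates 1 to 3. The median log2 fold change of the 11 genes was 0.40 and 0.27 in these sets, against 0.70 over all libraries. Within replicates 4 and later, also a smaller comparison and one with other WT libraries than replicates 1 to 3, all 11 rose with a median of 1.101. The part of the lower number of libraries in the lost calls was not tested. The count of transport kinesins that rose was 3, and it went to 0 within replicates 1 to 3 (3 at an unadjusted p under 0.05), to 1 at a threshold of 0.01, to 1 with an absolute log2 fold change of 0.5 or more, and to 1 to 3 with 1 library left out. Without Whsc1-KO replicate 6 it was 1. The 2 transport kinesins that fell became 1 within replicates 1 to 3 and 1 with the fold limit, and stayed at 2 to 2 with 1 library left out. The 2 other kinesins that changed became 1 with edgeR, 1 with DESeq2 and 1 at a threshold of 0.01, each by the loss of Kif9 (edgeR adjusted p = 0.115, DESeq2 adjusted p = 0.081), and 1 to 3 with 1 library left out: Kif9 was lost without any 1 of WT replicates 1, 2 and 4 to 7 and Whsc1-KO replicates 4 to 6, and Kif7 passed without WT replicate 3 (0.64). Kif5b lost its call without WT replicate 2, 6 or 7 or Whsc1-KO replicate 4, 5 or 6 (0.16 to 0.18), with upper quartile scaling and without a filter, and Kif13b without Whsc1-KO replicate 3 or 6 (0.19 and 0.20). Without a filter, Kif26a passed at a log2 fold change of 3.17 (limma adjusted p = 7.85e-05) and Kif9 lost its call (0.0674). The causes were not tested.

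No pairing was found between replicate numbers: deviations of same-numbered libraries correlated at -0.108 to 0.206. With a replicate block over replicates 1 to 6, 11 mitotic kinesins rose, 1 transport kinesin rose, 2 fell and 1 other kinesin changed, the calls of Kif13b, Kif5b and Kif9 being lost (limma adjusted p = 0.0999, 0.101 and 0.0903).

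Among single fold changes that turned sign, Kif9 was called over all libraries and the others were not. Kif24 went to -0.002 with upper quartile scaling, -0.019 with library weights, -0.089 within replicates 1 to 3, -0.003 with the sex score and ran from -0.054 (without WT replicate 5) to 0.074 with 1 library left out. Kif2a went to 0.095 with weights, 0.22 within the later replicates, 0.003 with the sex score and -0.089 to 0.033 with 1 library left out, Kif1c to 0.008, 0.055 and 0.007 under the first 3 of these, and Kif3b to 0.015 with weights, 0.023 with the sex score and -0.034 to 0.018 with 1 library left out. Kif3a went to 0.076 with weights, 0.14 within the later replicates, 0.052 with the sex score and -0.067 to 0.049 with 1 library left out. Within replicates 1 to 3, Kif9 went from -0.67 to 0.019 and Kif5c from 0.23 to -0.395. TMM and upper quartile scaling moved the median of all genes to -0.01 and -0.03 from -0.003. Depth limits Kif5a, Kif7, Kif5c and the 9 untested members.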
